A study of Mus musculus with 6 samples.

Results

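The 40 genes described here encode the machinery that builds and takes apart branched actin networks, namely the Arp2/3 complex, the WASP and WAVE proteins that switch it on, and the proteins that stabilize, cap, debranch or sever actin filaments. They were chosen by name from a fixed list of symbols, drawn up with earlier results of these data known, out of 23284 genes in the expression tables. The tables held 39 of them under the listed symbol, and Brk1 under its older symbol 6720456B07Rik. With the exception of Wasf1, which stayed under 1 FPKM (the Cufflinks measure of expression, which is scaled to transcript length and to library depth), the genes had a mean of at least 1 FPKM over all libraries, so 39 genes were tested.

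The Arp2/3 complex binds the side of an existing actin filament and starts a new filament as a branch. WASP proteins activate it downstream of the GTPase Cdc42, and WAVE proteins, held in a regulatory complex, do so downstream of Rac. In leukocytes such branched networks push out the protrusions with which a cell crawls, and they are kept moving by cofilins, coronins, capping proteins and twinfilins that recycle the filaments.

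The cells studied were C1498, a line of mouse acute myeloid leukemia (AML) made green by an EGFP retrovirus and grown from 1 selected clone. They were transferred intravenously into female C57BL/6J mice of wild type. Cells were sorted from bone marrow as GFP+ CD49b+ cells on day 21, from 3 mice given cytarabine and from 3 control mice, which the sample records call both PBS and untreated. Each mouse gave 1 library, so the spread between libraries is that between mice, and all 6 mice carried the same leukemia clone. The study gives age and sex for its mice in general, as young adult females, and the dose given to these particular mice is not stated in the sources used here. The comparison of cytarabine with control asks which genes differ in the RNA of the cells sorted as leukemia after chemotherapy. That RNA also held transcripts of other tissues.

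The leukocyte gene Ptprc was at 283.5 to 385.5 FPKM in every library, and the T cell receptor gene Cd3e at 130 to 199 FPKM. Cd3e is 1 of 12 markers of T and NK cells, which summed to 853.7 to 1129 FPKM. Of these 12, 6 stayed under 1 FPKM in every library. The 10 markers of myeloid progenitors and AML summed to 261 FPKM in cytarabine 1, where Mpo was at 71.0 and Elane at 81.7 FPKM, and to 23.4 to 53.7 FPKM in the other libraries. Among them Kit was at most at 1.59 FPKM and Itgam at 4.76 FPKM. Library totals, inferred from the steps between low FPKM values, ranged from 11320000 to 18790000 reads, at which 3 reads on a transcript of 2000 bases are worth 0.0887 to 0.147 FPKM. Transcripts of other tissues were unequal between libraries. The summed level of 11 colon epithelium markers reached 3904 FPKM in cytarabine 2, 4202 in cytarabine 3 and 1932 in control 1. It was 294 FPKM in cytarabine 1, 25.0 in control 2 and 23.9 in control 3, with all 11 markers higher in each of the former 3 libraries than in each of the latter 3. All 8 smooth muscle markers divided the libraries in the same way. Within each of these sets of 3 the cytarabine libraries had the higher colon sum. Differences given below within the libraries with much or with little colon transcript are therefore not matched for it. The 8 heart markers summed to 2427 FPKM in control 1 and to between 7.88 and 660.5 FPKM in the others. The 8 neutrophil markers summed to 1433, 199 and 189 FPKM with cytarabine and to 1438, 2043 and 2004 FPKM in controls. For 6 of these 8 the groups did not overlap, the cytarabine libraries being lower. The colon and smooth muscle markers thus divided the libraries across the treatment groups and most neutrophil markers along them, and the part of either in the differences below was not tested. In sorted cells, fewer cells of a type and less RNA per cell cannot be told apart.

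Levels of the 40 genes were widely different, from Actr3, Coro1a and Arpc2, at 387.8 FPKM or more in every library, to Wasf1, whose highest library was at 0.16 FPKM. In most of them the libraries were close together. The highest library was less than 1.5 times the lowest for 26 of the 39 genes tested, a property shared by 57.1% of all 11703 genes tested. The highest library was more than 2 times the lowest for 7 genes, Cttn, Nckap1, Cfl2, Dstn, Wasl, Gmfg and Twf1.

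**Figure D1:**
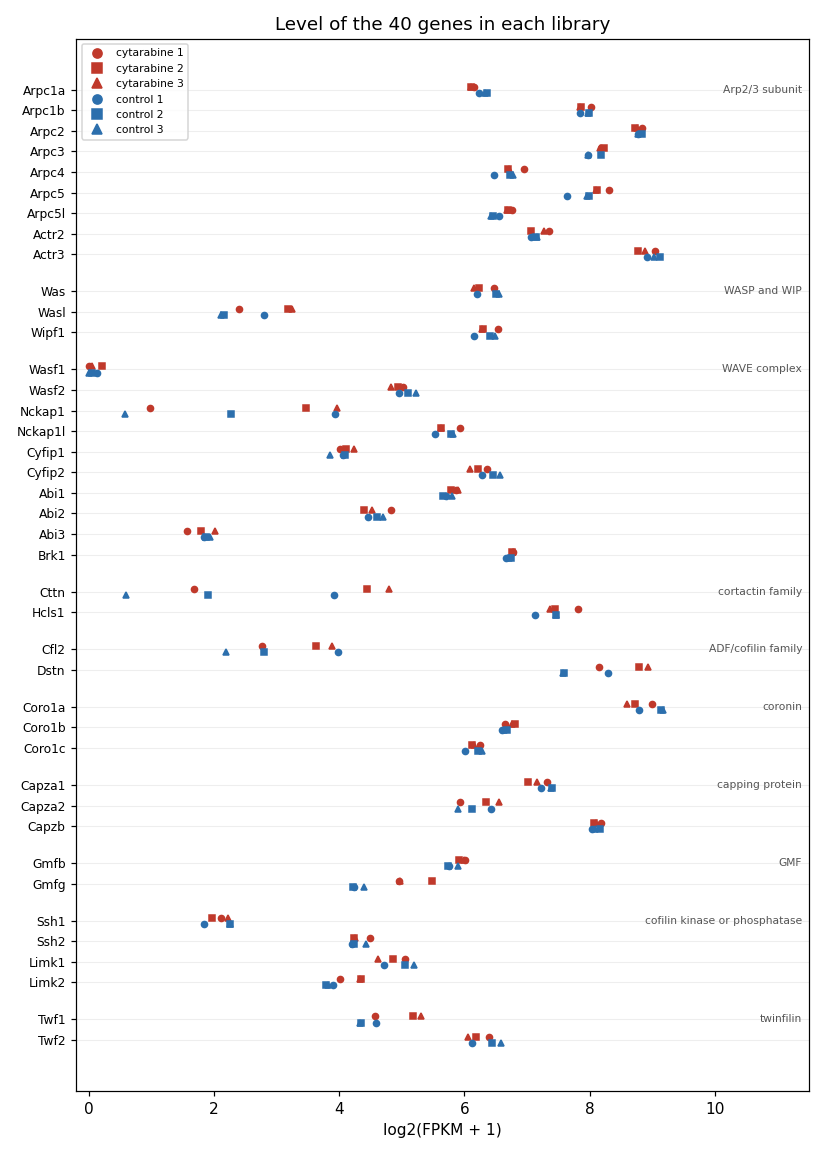
Each row is a gene and each point a library, at its log2(FPKM + 1), with cytarabine in red and control in blue and the genes grouped by role. Points of most genes lie close together, while those of Cttn and Nckap1 are spread over more than 3 units.

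No gene had an adjusted p under 0.05 in the comparison of cytarabine with control, neither among the 39 genes described here nor among all 11703 tested (limma with trend on log2(FPKM + 1), two-sided, Benjamini-Hochberg adjustment over all genes). Of the 11703 genes, 2038 had an unadjusted p under 0.05. The smallest adjusted p among the 39 genes was 0.137, for Gmfg, from limma. An unadjusted p under 0.05 was found for 8 of the 39 genes, 20.5% of them, where 17.4% of all genes tested had one. Of these 8, 7 were higher with cytarabine, namely Gmfg, Dstn, Twf1, Limk2, Arpc5, Arpc5l and Gmfb, and 1 was lower, Arpc1a. By direction, 7.6% of all genes were higher at this threshold and 9.81% lower. The groups did not overlap for 7 of the 39 genes, against 23.8% of all genes tested. These were Gmfg, Gmfb, Limk2, Arpc5, Arpc5l and Brk1, each higher in every cytarabine library (10.9% of all genes), and Arpc1a, lower in every one (12.9% of all genes). The median log2 fold change over the 39 genes was 0.06, beside -0.0015 over all genes tested, and 25 genes had a positive and 14 a negative value.

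**Figure D2:**
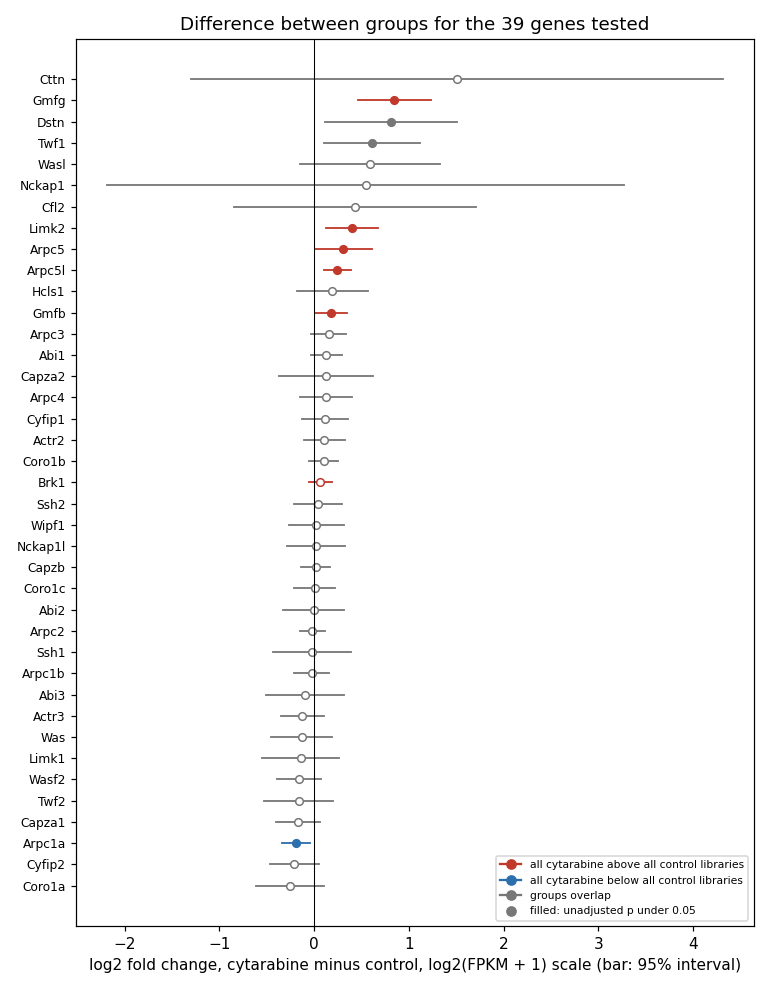
Points give the log2 fold change of the 39 genes tested on the log2(FPKM + 1) scale, cytarabine minus control, with 95% intervals from limma as bars, and filled points have an unadjusted p under 0.05. Intervals are narrow for most genes and widest for Cttn and Nckap1, and the groups do not overlap for the 6 genes in red and the 1 in blue.

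The Arp2/3 complex has 7 subunits, 2 of which come in alternative forms encoded by separate genes, so 9 genes were measured. Their levels, in FPKM, were high, and the highest library was less than 1.5 times the lowest for all of them except Arpc5, where it was 1.61 times. Arpc2, a core subunit that contacts the mother filament, was at 457, 424 and 432 FPKM after cytarabine, against 437, 455 and 437 FPKM in controls, and its groups overlapped (log2 fold change -0.02, 95% interval -0.15 to 0.12). With the alternative forms summed, the mean over the 6 libraries was 500.1 FPKM ± 44.0 (SD) for Actr3, 440.3 ± 13.03 for Arpc2, 358 ± 46.3 for Arpc5 with Arpc5l, 316 ± 17.7 for Arpc1a with Arpc1b, 278 ± 21.6 for Arpc3, 144 ± 12.1 for Actr2 and 105 ± 11.1 for Arpc4. Actr3 was above Arpc2 in each of the 6 libraries. The ranges over libraries of neighbours in this order overlapped, except between Arpc3 and Actr2 and between Actr2 and Arpc4.

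**Figure D3:**
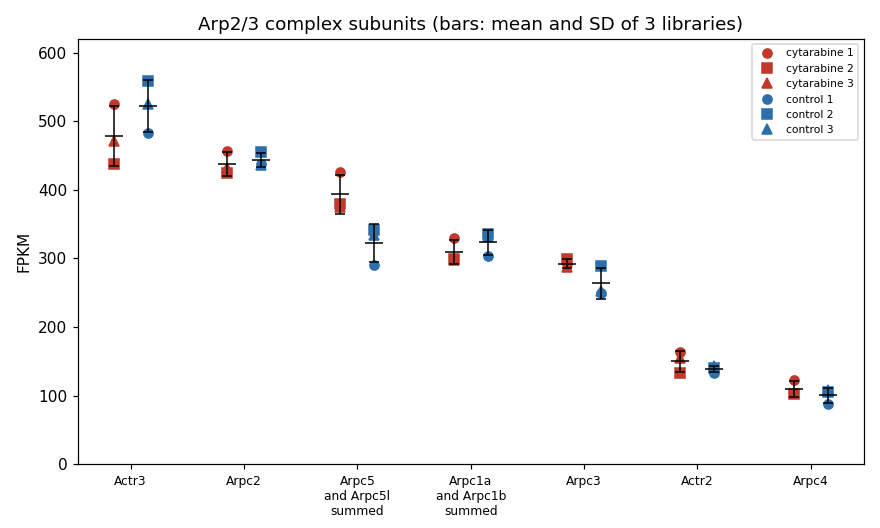
Levels in FPKM of the 7 subunits of the Arp2/3 complex by library, the alternative forms Arpc1a and Arpc1b, and Arpc5 and Arpc5l, being summed, with bars for the mean and SD of 3 libraries. Arpc5 with Arpc5l lies at 375 to 426 FPKM after cytarabine, against 290.4 to 341 FPKM in controls, and the other 6 overlap between the groups.

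Both forms of the subunit ARPC5, which is a core part of the complex, were higher with cytarabine. Arpc5l, which lies at 39005348 to 39015877 on chromosome 2 (GRCm38), was measured at 107, 103 and 102 FPKM after cytarabine, against 92.4, 86.7 and 85.1 FPKM in controls. All treated libraries were above all controls, with a log2 fold change of 0.24 (SE 0.06, unadjusted p = 0.00607, adjusted p = 0.166 from limma), and the unadjusted p stayed under 0.05 in each of the 6 fits that left out 1 library. With the colon and heart scores as covariates the log2 fold change was 0.22 (unadjusted p = 0.188 from limma). Arpc5, on chromosome 1 from 152766542 to 152775597, was at 318, 276 and 273 FPKM after cytarabine, against 198, 255 and 249 FPKM in controls. Control 1 was the lowest library, and the log2 fold change came to 0.31 (SE 0.12, unadjusted p = 0.0437, adjusted p = 0.277 from limma). Without control 1 the value was 0.19 (unadjusted p = 0.0878 from limma), and the p was above 0.05 in 5 of the 6 fits that left out 1 library, the exception being the one without control 2. Adjusted for the colon and heart scores, the log2 fold change of Arpc5 was 0.55 (unadjusted p = 0.00553, adjusted p = 0.998 from limma).

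Arpc1a, one of the alternative forms of the WD-repeat subunit, was the only one of the 39 genes that was lower at an unadjusted p under 0.05. It lies on chromosome 5 from 145083830 to 145108761. Its levels were 70.6, 67.7 and 67.8 FPKM after cytarabine, against 74.1, 81.6 and 79.6 FPKM in controls, without overlap, and the log2 fold change was -0.19 (SE 0.06, unadjusted p = 0.0214, adjusted p = 0.221 from limma). With the colon and heart scores as covariates it was -0.09, and the p was above 0.05 without cytarabine 2, cytarabine 3, control 2 or control 3. Arpc1b, the form that predominates in blood cells and lies next to Arpc1a on the same chromosome, was at 259, 232 and 230.2 FPKM against 229, 254 and 252 FPKM, and these groups overlapped. Among the subunits without alternative forms in the list, Arpc3, Arpc4 and Actr2 had log2 fold changes of 0.15, 0.13 and 0.11 and Actr3 of -0.13, each with a 95% interval that included 0. Actr3 has a processed pseudogene, Gm8822, that matches 2348 bases of its transcript at 98.8% identity and is not a row of the tables, and Arpc1b and Arpc4 share exon bases with the neighbouring genes Pdap1 and Ttll3. Twf1 likewise shares exon bases with Irak4, and Coro1b, Cyfip1, Abi1, Abi3, Capza1 and Cfl2 do so with neighbouring genes. The longest shared stretch was 432 of 1888 bases for Coro1b with Ptprcap and 1316 of 6440 bases for Cyfip1 with Nipa2. For Abi3 it was 1591 of 4006 bases with Phospho1 and 2447 with Zfp652. Exons of Arpc1a overlap the span of Kpna7, introns included, as do those of Arpc5l with Wdr38 and Rpl35 and those of Gmfg with Samd4b. Whether exon bases are shared in these cases was not established. How the counting assigned reads from overlapping genes is not given in the sources used here.

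Actr2 and Actr3 encode the pair of actin-related proteins that form the first subunits of the new branch, 1 of each per complex. The ratio of Actr3 to Actr2 in FPKM, chosen after the values were seen, was 3.22, 3.30 and 3.06 with cytarabine and 3.61, 3.99 and 3.68 in controls. It is given as a description with no test, having been picked for its separation. The difference in the log2 ratio was -0.23, and it was -0.25 within the libraries with little colon transcript and -0.18 within those with much of it.

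WASP proteins and their partner WIP were next. Was, the WASP of blood cells, was at 88.0, 74.1 and 70.2 FPKM after cytarabine, against 72.5, 89.8 and 92.9 FPKM in controls. Wipf1, which encodes WIP, the protein that binds and protects WASP, was at 91.8, 77.6 and 77.2 FPKM against 70.2, 83.6 and 88.9 FPKM. For both genes the libraries with much colon transcript were lower than the others, and the groups overlapped. Wasl, the broadly expressed N-WASP, showed the opposite division, at 4.27, 8.06 and 8.50 FPKM after cytarabine, against 5.93, 3.48 and 3.33 FPKM in controls. Its log2 fold change was 0.59 (SE 0.30, adjusted p = 0.354 from limma), and 0 of these 3 genes had an unadjusted p under 0.05.

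Of the 10 genes of the WAVE regulatory complex, 9 were tested and 0 had an unadjusted p under 0.05 (median log2 fold change 0.02). The complex takes a single protein from each of its families, and the families differed in which gene was expressed most. Wasf2, encoding WAVE2, was at 31.6, 29.7 and 27.5 FPKM after cytarabine, against 29.98, 33.2 and 36.6 FPKM in controls, and Wasf1 at no more than 0.16 FPKM, a value of the order of a few reads. Nckap1l, which encodes the hematopoietic scaffold HEM1, was at 60.0, 48.3 and 48.7 FPKM against 45.0, 54.4 and 55.6 FPKM. Its groups overlapped almost fully (log2 fold change 0.02, 95% interval -0.29 to 0.32).

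Cyfip2, the leading one of the CYFIP genes, whose product carries the Rac binding surface, was at 81.0, 73.7 and 67.1 FPKM after cytarabine, against 76.5, 87.3 and 93.5 FPKM in controls. Its log2 fold change of -0.21 (SE 0.11, adjusted p = 0.345 from limma) was among the 3 most negative of the 39 genes, and the groups overlapped through control 1. Cyfip1 was at 13.5 to 17.9 FPKM. Abi1 was at 57.6, 54.0 and 58.9 FPKM against 51.3, 49.7 and 54.8 FPKM, Abi2 at 20.0 to 27.5 FPKM and Abi3 at 1.97 to 3.02 FPKM. The smallest subunit, Brk1, was the steadiest of the WAVE genes. It was at 109, 108 and 108 FPKM after cytarabine, against 101, 106 and 104 FPKM in controls, without overlap but with a log2 fold change of only 0.06 (SE 0.05, unadjusted p = 0.251, adjusted p = 0.491 from limma).

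Nckap1, the form of the HEM scaffold used outside blood cells, behaved unlike the rest of the complex. It was at 0.96, 10.1 and 14.7 FPKM after cytarabine, against 14.2, 3.82 and 0.49 FPKM in controls. The 3 libraries with much colon transcript held the highest values, and the log2 fold change of 0.54 (SE 1.11, adjusted p = 0.794 from limma) was within the spread between mice. Its sign turned without control 3, to -0.30, and without cytarabine 3, to -0.04.

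The same division was seen in cortactin. Cttn encodes cortactin, which holds branches on the mother filament, and was at 2.21, 20.8 and 26.8 FPKM after cytarabine, against 14.1, 2.74 and 0.51 FPKM in controls. The highest of these libraries was 53.0 times the lowest, and the log2 fold change of 1.51 (SE 1.14, 95% interval -1.30 to 4.32, adjusted p = 0.477 from limma), the highest of the 39, was within the spread between mice. Hcls1, its blood cell counterpart HS1, was at 223, 173 and 164 FPKM against 138, 176 and 175 FPKM. The groups overlapped, since cytarabine 2 and cytarabine 3 lay below control 2 and control 3.

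Among the genes of filament severing, Dstn and Cfl2 were members. Dstn encodes destrin, also called ADF, and was at 284, 443 and 490.3 FPKM after cytarabine, against 314, 191 and 189 FPKM in controls. Control 1 was above cytarabine 1, so the groups overlapped, although the log2 fold change of 0.81 (SE 0.28) had an unadjusted p of 0.030 (adjusted p = 0.241 from limma). The p was above 0.05 without cytarabine 2, cytarabine 3, control 2 or control 3, and with the colon and heart scores as covariates the log2 fold change was 0.37 (unadjusted p = 0.0711 from limma). The difference was 0.57 among the libraries with little colon transcript and 0.57 among those with much of it, where in both cases one of the groups is represented by 1 library. Neither set was matched for colon transcript, since the cytarabine libraries had the higher colon marker sum in both. Cfl2, the muscle cofilin, was at 5.79, 11.3 and 13.7 FPKM against 14.8, 5.98 and 3.55 FPKM, again highest in the 3 libraries with much colon transcript.

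Twinfilins bind actin monomers and free capped filament ends. Twf1 was at 22.9, 35.4 and 38.7 FPKM after cytarabine, against 23.0, 19.3 and 19.1 FPKM in controls, with a log2 fold change of 0.61 (SE 0.21, unadjusted p = 0.0264, adjusted p = 0.233 from limma). Cytarabine 1 and control 1 were at about the same level, and the p was above 0.05 in the 4 fits that left out cytarabine 2, cytarabine 3, control 2 or control 3. With the colon and heart scores as covariates the log2 fold change of Twf1 was 0.38. Twf2, the form expressed most here, was at 83.3, 71.7 and 65.7 FPKM against 68.4, 85.9 and 94.6 FPKM, with overlap.

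Capping protein closes the growing end of the filament as a dimer of an alpha and a beta chain. Capzb, the beta chain, was one of the steadiest genes at 290, 267 and 273 FPKM after cytarabine, against 263, 287 and 272 FPKM in controls. Its log2 fold change was 0.02 (95% interval -0.13 to 0.16). Capza1 was at 129 to 168 FPKM and Capza2 at 58.6 to 92.8 FPKM, and the libraries with much colon transcript were the lowest for the former and the highest for the latter. A pseudogene, Gm3608, matches 2859 of the 3193 bases of the Capza1 transcript at 99.5% identity and has no level of its own here. Reads from Capza1 could therefore have been divided.

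GMF proteins remove branches from the network by acting on the Arp2/3 complex, and both were higher in every treated library. Gmfg, the form of blood cells, lies on chromosome 7 from 28437447 to 28448233 and was at 30.1, 43.6 and 30.2 FPKM after cytarabine, against 17.9, 17.6 and 20.1 FPKM in controls. Cytarabine 2 was the highest library, and the controls lay close together. The log2 fold change was 0.85 (SE 0.16, 95% interval 0.46 to 1.24, unadjusted p = 0.00187, adjusted p = 0.137 from limma), and the unadjusted p stayed under 0.05 in each of the 6 fits that left out 1 library, with values from 0.68 to 0.93. The difference was 0.65 within the libraries with little colon transcript and 0.98 within those with much of it. With the colon and heart scores as covariates, a fit that leaves 2 residual degrees of freedom, it was 0.25 (unadjusted p = 0.341 from limma). A processed pseudogene, Gmfg-ps, matches 427 of the 657 bases of the transcript at 99.3% identity and is not a row of the tables, so reads from the gene could have been divided.

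Gmfb, the broadly expressed form on chromosome 14 from 46808149 to 46822242, was at 63.4, 59.5 and 62.8 FPKM after cytarabine, against 52.9, 52.6 and 58.9 FPKM in controls. The closest libraries differed by less than 1 FPKM, and the log2 fold change was 0.18 (SE 0.07, unadjusted p = 0.0436, adjusted p = 0.277 from limma). It kept an unadjusted p under 0.05 only without control 3 among the fits that left out 1 library, and had 0.20 with the colon and heart scores as covariates (unadjusted p = 0.279 from limma). The 250 bases before the RefSeq start of both genes (GRCm38.p6) are printed because they are the pair of paralogs of which the blood cell form differed most. Capitals mark GC boxes (GGGCGG or its reverse complement) and CCAAT boxes (CCAAT or its reverse complement), which do not overlap here.
Gmfg, chr7:28437219-28437468, plus strand: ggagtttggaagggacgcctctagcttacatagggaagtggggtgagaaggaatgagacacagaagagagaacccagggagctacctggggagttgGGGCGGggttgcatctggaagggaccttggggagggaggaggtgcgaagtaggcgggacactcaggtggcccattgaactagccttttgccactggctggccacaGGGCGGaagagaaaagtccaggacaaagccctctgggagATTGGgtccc
Gmfb, chr14:46822243-46822492, minus strand: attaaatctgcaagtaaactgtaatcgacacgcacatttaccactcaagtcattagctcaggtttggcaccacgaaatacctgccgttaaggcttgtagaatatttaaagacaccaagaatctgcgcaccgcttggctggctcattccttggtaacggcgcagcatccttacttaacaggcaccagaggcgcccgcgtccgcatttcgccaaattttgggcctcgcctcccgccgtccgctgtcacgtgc
The Gmfg stretch held 2 GC boxes and 1 CCAAT box and the Gmfb stretch 0 of either, where 32.7% of all 32851 promoter windows of this length held a GC box and 33.8% a CCAAT box. The CArG box of SRF, a regulator the study examined, was searched as CC, 6 bases that are each A or T, and GG, which makes 10 bases. Neither stretch held one of this length, although the Gmfb stretch has a run that is 1 base longer between CC and GG.

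Coronins protect young filaments and recruit cofilin and the Arp2/3 complex. Coro1a, the coronin of leukocytes, was at 511, 423 and 388 FPKM after cytarabine, against 443, 562 and 576 FPKM in controls. Its log2 fold change of -0.26 (SE 0.15, adjusted p = 0.382 from limma) was the most negative of the 39 genes, and the groups overlapped because cytarabine 1 lay above control 1. Coro1b and Coro1c were at 96.3 to 111 and at 63.4 to 76.5 FPKM.

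LIM kinases inactivate cofilin by phosphorylation and slingshot phosphatases reverse this. Limk2, on chromosome 11 from 3344256 to 3409189, was at 15.1, 19.5 and 19.2 FPKM after cytarabine, against 13.9, 12.8 and 13.2 FPKM in controls. Every treated library was above every control, with a log2 fold change of 0.40 (SE 0.11, unadjusted p = 0.0126, adjusted p = 0.192 from limma), and the unadjusted p stayed under 0.05 in each of the 6 fits that left out 1 library. The difference was 0.20 within the libraries with little colon transcript, 0.44 within those with much of it, and 0.20 with the colon and heart scores as covariates. Limk1 was at 32.1, 28.0 and 23.7 FPKM against 25.2, 32.1 and 35.7 FPKM, with overlap. The slingshot genes Ssh1 and Ssh2 were at 2.59 to 3.79 and at 17.5 to 21.5 FPKM.

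The expression of paralogs was then set against each other within libraries, since a ratio of 2 FPKM values does not depend on how a library was scaled. With 1 FPKM added to each gene, as here, this holds only in part for low genes. With 0.1 FPKM added, the difference between the groups for Hcls1 over Cttn was -1.72 in place of -1.32. Of 15 pairs, 14 had both genes at a mean of at least 1 FPKM. The log2 ratio did not overlap between the groups for 2 of the 14 pairs, in which the first gene was higher relative to the second with cytarabine. For this count no share over other pairs of genes was taken, and 23.8% of all single genes tested did not overlap. For Gmfg over Gmfb the log2 ratio of (FPKM + 1) was -1.05, -0.44 and -1.03 with cytarabine and -1.51, -1.52 and -1.51 in controls, a difference of 0.67. Gmfg thus made up 32.2%, 42.3% and 32.5% of the summed GMF level with cytarabine and 25.3%, 25.1% and 25.4% in controls. For Arpc1b over Arpc1a the log2 ratio was 1.86, 1.76 and 1.75 against 1.61, 1.63 and 1.65, a difference of 0.16. Both had p = 0.1 in the exact permutation test (two-sided), the smallest value that 3 libraries against 3 allow, and an adjusted p of 0.4 over the 14 pairs by the same exact test. Both differences had the same sign within the libraries with little colon transcript (0.47 and 0.22) and within those with much of it (0.77 and 0.14). Neither set was matched for colon transcript. With the colon and heart scores as covariates the difference for Gmfg over Gmfb was 0.055 and that for Arpc1b over Arpc1a 0.18.

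In 10 of the 14 pairs the ratio instead separated the 3 libraries with much colon transcript from the other 3. The share over other pairs of genes was not taken. Of all single genes tested, 17.2% were higher and 17.2% lower in each of these libraries than in each of the others. In 8 of them the first gene was relatively lower there, among them the blood cell forms Hcls1, Nckap1l, Was and Coro1a. The ratios of the blood cell forms Arpc1b and Gmfg did not divide the libraries in this way. Hcls1 made up 99.0%, 98.5% and 99.7% of the cortactin family level in cytarabine 1, control 2 and control 3, and 89.3%, 85.9% and 90.8% in cytarabine 2, cytarabine 3 and control 1. Nckap1l made up 98.4%, 93.4% and 99.1% of the HEM level in the former and 82.8%, 76.9% and 76.0% in the latter. Was over Wasl, Cyfip2 over Cyfip1, Coro1a over Coro1b, Capza1 over Capza2, Twf2 over Twf1 and Arpc5 over Arpc5l divided the libraries in this direction too, and Abi1 over Abi2 and Limk2 over Limk1 in the opposite one.

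**Figure D4:**
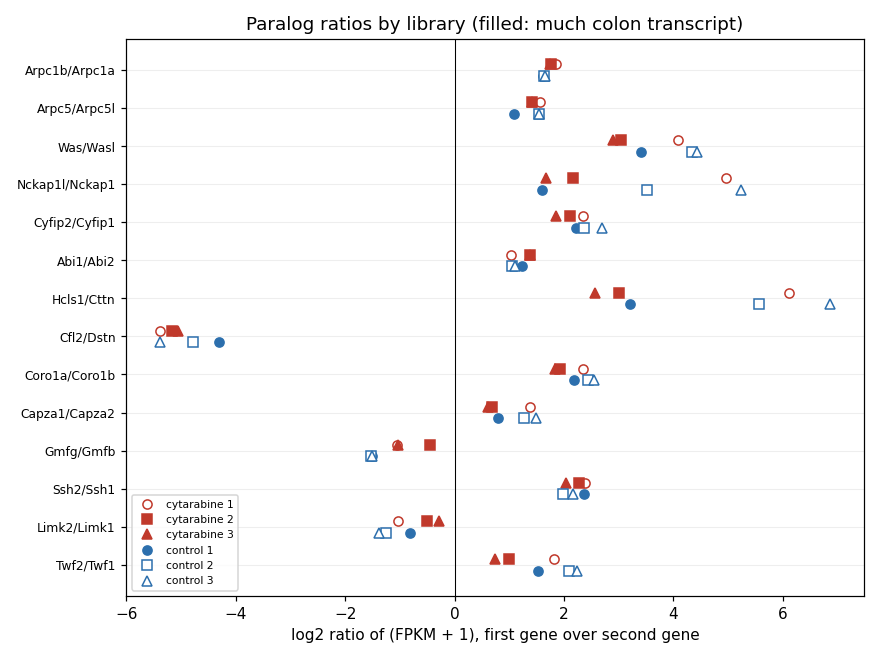
Each row is a pair of paralogs and each point a library, at the log2 ratio of (FPKM + 1) of the first gene over the second, with filled points for the 3 libraries with much colon transcript. Red and blue points separate for Gmfg/Gmfb and Arpc1b/Arpc1a, whereas filled and open points separate for Hcls1/Cttn, Nckap1l/Nckap1 and Was/Wasl.

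Counted over single genes, 7 of the 39 (17.9%) were higher in each of the 3 libraries with much colon transcript than in each of the other 3, namely Cttn, Nckap1, Cfl2, Wasl, Dstn, Twf1 and Capza2, where 17.2% of all genes tested were. Lower in each of these libraries were 15 of the 39 (38.5%), where 17.2% of all genes tested were. The 15 included Was, Wipf1, Nckap1l, Hcls1, Coro1a, Arpc1b and Actr3. The Krt8 gene of epithelium was at 612, 616 and 284 FPKM in the 3 libraries and at 38.99, 4.38 and 1.79 FPKM in the others, and the leukocyte gene Ptprc at 283.5, 319 and 301 FPKM against 371, 385.5 and 384.5 FPKM. Of the 7 genes, Cttn, Nckap1, Cfl2 and Capza2 were higher in control 2 than in cytarabine 1, and Wasl, Dstn and Twf1 were lower. The heart markers summed to 517 FPKM in control 2 and 7.88 FPKM in cytarabine 1, and the colon markers to 25.0 and 294 FPKM. These values are given as a description, and the part of colon, smooth muscle or heart RNA in the levels of the 7 genes was not tested.

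**Figure D5:**
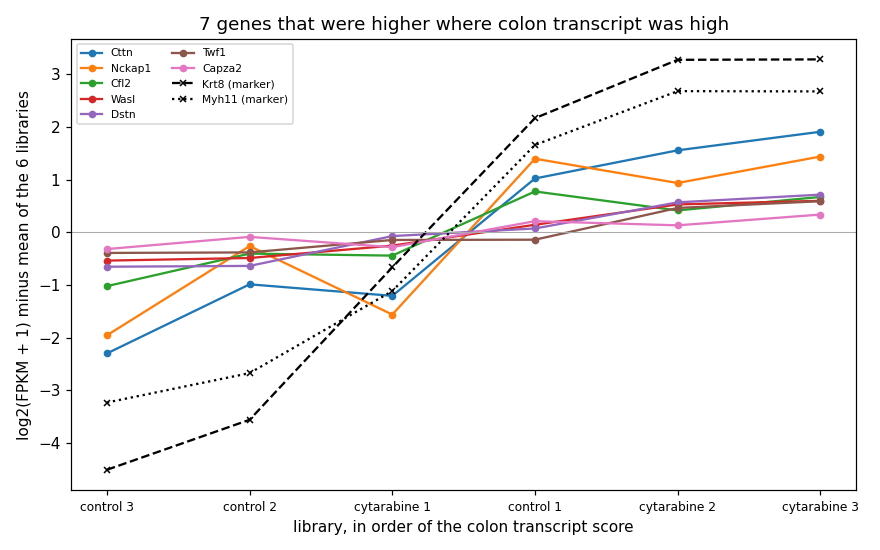
Log2(FPKM + 1) of 7 genes, each minus its mean over the 6 libraries, is drawn with the libraries in order of their colon transcript score, beside the epithelial gene Krt8 and the smooth muscle gene Myh11 in black. The 7 genes lie higher in control 1, cytarabine 2 and cytarabine 3 than in the other 3 libraries, Cttn and Nckap1 most widely.

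Of 20 other actin-binding genes tested, 2 were higher and 0 lower at an unadjusted p under 0.05 (median log2 fold change 0.09). Wdr1, a cofilin partner, and Lrrc16a, which binds capping protein, had log2 fold changes of 0.19 and 0.34 without overlap of the groups. The cofilin Cfl1 and the monomer-binding Pfn1, both highly expressed, with means of 1081 and 1220 FPKM after cytarabine, had -0.03 and -0.07.

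Of the 40 genes, 31 had a promoter window in the RefSeq table, too few for a count over the group to be read. Among these 31, Arpc4 alone held a CArG box of 10 bases in the 250 bases before its start, where 1.47% of all windows held one. The 40 bases that begin with it, at the far end of the window, are printed with the box in capitals.
Arpc4, chr6:113377863-113377902, plus strand, GRCm38.p6: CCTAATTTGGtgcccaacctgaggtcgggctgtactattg
Arpc4 was at 123, 103 and 104 FPKM after cytarabine, against 88.2, 105 and 108 FPKM in controls, and its groups overlapped.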

How the data were processed

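RNA-seq libraries of cells sorted as C1498 from 3 cytarabine-treated and 3 control mice were analysed. Per the labels, reads were mapped to mm10 with TopHat2 2.0.13, Bowtie2 2.2.3 and SAMtools 0.1.19, and the authors deposited the FPKM values of Cufflinks 2.2.1. The kit was stranded, but the gene annotation and the counting options are not given in the sources used here. FPKM are not counts, so log2(FPKM + 1) was tested for those genes that averaged 1 FPKM or more with limma 3.58.1 in R 4.3.3 (trend, two-sided, Benjamini-Hochberg over 11703 genes), which understates changes of low genes.

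The genes and lists were chosen with earlier results of these data known. Values in every library are given for genes at an unadjusted p under 0.05, the 3 largest changes in each direction, the most variable genes and separated paralog pairs, and further values were chosen after they were seen. Ratios were tested by exact permutation over libraries. Reads per library were inferred assuming a fragment length of 200 bases. Positions are from GENCODE M21 (GRCm38), near-identical copies are matches of at least 75 bases at 98% identity (blastn 2.17.0), and promoters are from RefSeq. The colon and heart scores are the mean log2(FPKM + 1) of the marker lists. The numbers 1 to 3 of the libraries come from the sample records and are not stated to pair mice. Alternatives covered the pseudocount, filters, scaling, eBayes settings, a block, covariates and leaving out each library. A further list of pathway genes is not reported here.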

Additional observations from a re-analysis of the deposited data

How the results depend on the processing

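Among the 39 genes, 7 were higher and 1 lower at an unadjusted p under 0.05 in the main fit. With the colon and heart scores as covariates 3 were higher and 0 lower, and Arpc5 was the only one of the 7 among these 3. The replicate block also gave 3 higher and 0 lower, and its 3 were Gmfg, Arpc5l and Limk2. Same-numbered libraries are different mice, and the sample titles number the libraries differently. Their deviations from the group means correlated at -0.709, -0.247 and -0.594, which cannot decide whether mice were handled in pairs, since unequal tissue transcripts also enter these deviations. With the replicate block 994 genes of all had an unadjusted p under 0.05 and with the covariates 557, in place of 2038, both fits having fewer residual degrees of freedom. Among the other actin-binding genes the block gave 1 higher. Across the 6 fits that each left out 1 library (leave-one-out), 3 to 7 of the 39 genes were higher and 0 to 4 lower, with 9 to 19 not overlapping. The counts were most unlike the full comparison without cytarabine 1 and without control 1, at 4 and 3 lower and 19 and 18 not overlapping. Of all genes tested, 55.8% did not overlap without cytarabine 1 and 41.9% without control 1, beside 48.7% and 46.2% of the 39, and 28.9% to 29.9% did not in the other 4 comparisons, beside 23.1% of the 39. Over all genes these fits gave 1179 to 4075 at an unadjusted p under 0.05 and 0 to 5 at an adjusted p under 0.05. Other actin-binding genes numbered 0 to 4 higher. At an adjusted p under 0.05 limma found 1 gene with a pseudocount of 0.1, 2 without trend and 1 with robust trend, none of them among the 39. Actin-binding genes higher numbered 1 with a mean of at least 5 FPKM, 1 without a filter and 1 without trend.

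Some signs turned, in the following genes and ratios. The log2 fold change of Nckap1 was -0.12 with the covariates, -0.45 within the libraries with little colon transcript and -0.21 within those with much, and ranged from -0.30 to 1.46 leaving out 1 library. Cfl2 had -0.010 with the covariates and -0.23 within the libraries with much colon transcript. For the log2 ratio of Nckap1l over Nckap1 the difference of -0.53 became 0.58 and 0.31 within the libraries with little and much colon transcript, 0.36 with the covariates, and from -1.54 to 0.37 leaving out 1 library. Abi1 over Abi2 (0.13) had -0.044 with little colon transcript and -0.082 with the covariates, Hcls1 over Cttn (-1.32) 0.062 with the covariates, and Capza1 over Capza2 (-0.30) 0.0048 with little colon transcript and 0.029 with the covariates. Ssh2 over Ssh1 (0.06) had -0.20 with much colon transcript and -0.29 with the covariates. Leaving out 1 library, Ssh2 over Ssh1 ranged from -0.031 to 0.16 and Arpc5 over Arpc5l from -0.083 to 0.14. The cause was not tested. The median log2 fold change over the 39 genes ranged from 0.03 to 0.09 leaving out 1 library and was 0.16 with the covariates. FPKM values limit what can be said of genes with low levels, since 3 reads on a transcript of 2000 bases are worth 0.0887 to 0.147 FPKM.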
